A study of Mus musculus with 20 samples.

Results

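VE-cadherin-positive cells of mouse bone marrow, taken 6 hours after total body irradiation, were compared with the same population from non-irradiated mice, 5 arrays against 5 of the 20 in the series. The arrays were chosen by their titles, and every gene with a probe set of a single symbol was kept, represented by its brightest probe set, which gave 18193 genes of 18193 in the series. All mice were C57/Bl6 and between 8 and 10 weeks of age, and the irradiated mice had received a dose of 5 Gy; sex is not given in the labels used here. Cells taken 24 hours after the same dose, on 5 further arrays, serve as a second comparison. Those of day 14 were not compared, but their arrays entered the choice of probe sets, the array checks and some alternative settings. The labels call the samples biological replicates and do not say whether an array holds RNA of 1 mouse or of a pool, so the p-values measure the spread between these arrays.

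Vessels of the marrow carry blood cells in and out of the tissue and supply stem cells with growth factors, adhesion molecules and matrix. Ionizing radiation breaks DNA, and beyond the damage response itself it is known to set off stress kinase signalling, short-lived early response genes and release of vasoactive and inflammatory peptides. The families described here were chosen beyond lists of p53, cell cycle and endothelial marker genes. They cover early response genes, ligands and receptors, matrix, stress and nutrient pathways, and the machinery of translation, respiration and protein turnover. Single members can still belong to those programmes, such as Rps27l, which p53 induces, or repair genes transcribed mostly in S phase.

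The label was checked against marker genes, with signals on the linear scale of the deposited table, where each array was scaled to a common mean of 500. Cdh5, which encodes VE-cadherin itself, had signals of 3312, 2829, 3961, 3115 and 2709.8 on the non-irradiated arrays and 7631, 8328, 8559.8, 9308 and 10944 at 6 hours, a log2 change of 1.49 ± 0.12 (limma's standard error here and below; adjusted p = 3.47e-07). The groups did not overlap, and 13 of 14 endothelial markers were higher at 6 hours, with a summed signal of 15304 to 16867 without irradiation and 43096 to 49903 at 6 hours. RNA of other cells was also abundant: the 13 granulocyte markers summed to 128010 to 148130 without irradiation and 96802 to 115940 at 6 hours (10 lower), and the 10 stromal and osteoblast markers to 96592 to 105480 and 112210 to 136770 (6 higher). All 11 measured erythroid markers were lower, from a sum of 57142 to 63205 down to 6181 to 10040.0. The 8 megakaryocyte markers moved the other way, from 11771 to 13186 up to 31207 to 39823 (6 higher), and the 6 mast cell and basophil markers from 4310.0 to 5375 up to 8648 to 10135 (4 higher). Of the 10 pan-leukocyte markers 4 were lower and 1 was higher, among them Ptprc, the CD45 gene, at 4785 ± 417 against 2722 ± 476. None of these lists was at 0 in either group. In such mixed material fewer cells of a type and less RNA per cell cannot be told apart, and the part of these shifts in the results below was not tested.

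The 6-hour arrays varied more among themselves than any other group, with a median SD of 0.54 on the log2 scale over 13210 genes above background, against 0.29 without irradiation, 0.25 at 24 hours and 0.23 at day 14. The median correlation of an array with its replicates was 0.894 to 0.900 at 6 hours and 0.938 to 0.942 without irradiation. The background of an array, the 95th percentile of 27 bacterial control probe sets, lay between 17.5 and 51.5 over the 20 arrays. The difference between 3' and 5' probe sets of Gapdh, a sign of RNA quality, was 1.28 to 1.36 without irradiation and 1.26 to 2.04 at 6 hours, highest in replicate 3. It was 0.72 to 0.86 at 24 hours, and the mean log2 signal of the hybridization controls was 12.01 to 12.36 there against 12.66 to 13.04 at 6 hours. Both moved with the comparison of 6 with 24 hours, and their part in those differences was not tested.

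At 6 hours 3479 genes passed limma's adjusted p under 0.05, 19.1% of the 18193 tested, of which 1673 (9.20%) were higher and 1806 (9.93%) were lower. The median change was 1.10 among the higher and -1.26 among the lower genes. Large falls were more frequent than large rises: 383 genes fell and 202 rose at least 4-fold, and 33 fell and 9 rose at least 16-fold. For 1381 genes (7.59%) all 5 irradiated arrays lay above all 5 controls, and for 1465 (8.05%) they lay below. The balance depends on the scaling, since the deposited arrays were scaled to a common mean and centring them on their medians moved the median of all genes from -0.02 to 0.23 (0.12 under quantile normalization). With centred arrays 2631 genes were higher and 1046 lower, so changes of a list are read below against these medians. Counts of called members stand against 9.20% higher and 9.93% lower over all genes. Over the 13210 genes above background on all 5 arrays of a group, 12.3% were higher and 13.3% lower.

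**Figure D1:**
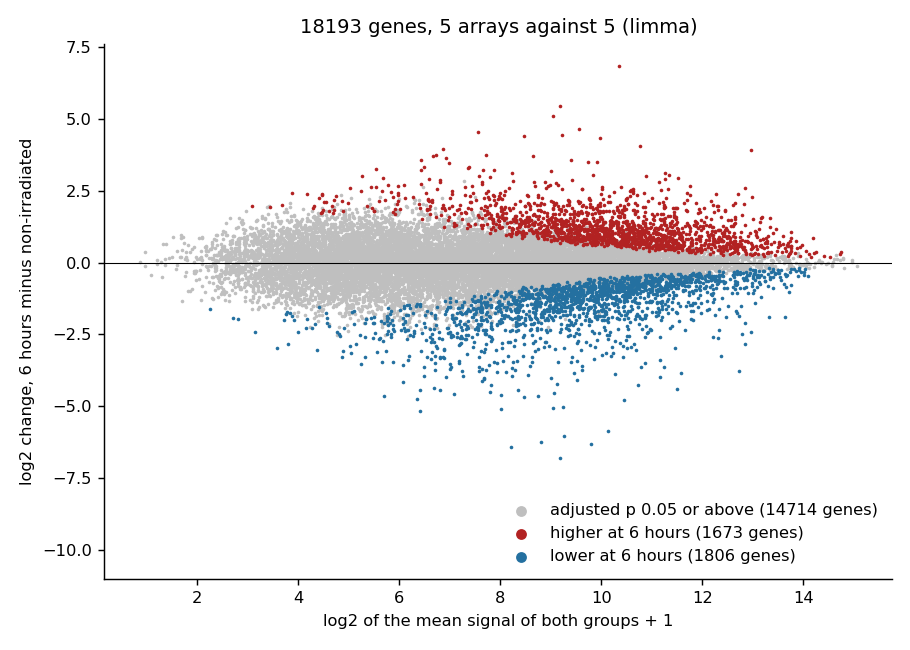
Each point is 1 of the 18193 genes: the horizontal axis is the log2 mean signal of both groups and the vertical axis the log2 change, 6 hours minus non-irradiated, with 1673 genes called higher and 1806 called lower by limma. Both calls span the range of signals, and the falls reach further from 0 than most rises; with arrays centred on their medians the calls were 2631 and 1046.

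Among the genes with the largest rises and falls, several have known roles outside the damage response, which does not exclude a part in it. Inhbb, the beta B subunit of activin and inhibin, had signals of 132, 239, 321, 132 and 205 on the non-irradiated arrays and 3619, 2559, 3337, 3579.5 and 3358 at 6 hours. Every irradiated array was far above every control, a change of 4.07 ± 0.26 (adjusted p = 2.48e-08; 2.14 in its other probe set). Saa3, an acute phase serum amyloid, rose from 99.9 ± 50.6 (mean ± SD, n = 5) to 1914 ± 490.0, a change of 4.32 ± 0.31 (adjusted p = 8.55e-08). Dcxr, a dicarbonyl and xylulose reductase, rose 12-fold (3.58 ± 0.28, adjusted p = 1.9e-07), and Dglucy, which encodes D-glutamate cyclase, rose 11.2-fold (3.48 ± 0.42, adjusted p = 1.8e-05). Counted in signal units, the largest rises included Ctla2a, a cysteine protease inhibitor, from 2787 ± 175 to 13451 ± 1148. Socs3, a feedback inhibitor of cytokine receptors, rose from 4663 ± 329.6 to 13717 ± 977, and Tfpi, which inhibits tissue factor, from 2824 ± 349.6 to 11667 ± 1612. These 3 genes changed by 2.27 ± 0.09, 1.56 ± 0.082 and 2.04 ± 0.11, each with no overlap between groups. In the other direction, Prdx2, a peroxiredoxin abundant in red cells, fell from 11800.0 ± 421 to 2888 ± 998 (-2.09 ± 0.17, adjusted p = 2.28e-07, with -0.55 in its other probe set). Prg2, the eosinophil major basic protein, fell from 12236 ± 897 to 4574 ± 375 (-1.42 ± 0.086, adjusted p = 1.56e-08). Mageb16, an X-linked MAGE family gene, fell from 667 ± 69.1 to 37.0 ± 31.2, where 2 of 5 arrays were above background.

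**Figure D2:**
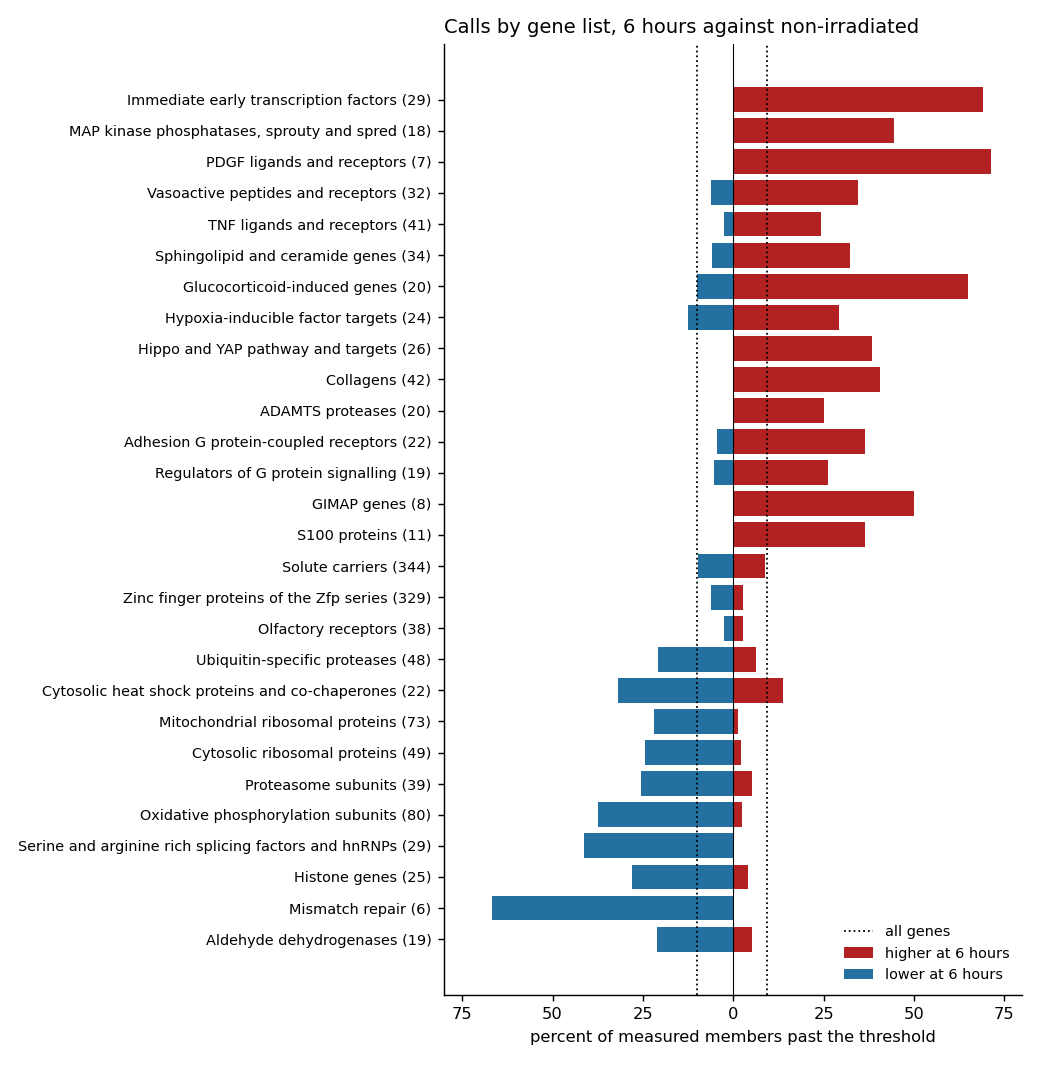
Bars give the percent of the measured members of each list (number in brackets) that limma called lower (left) or higher (right) at 6 hours, and dotted lines give the percent over all genes (9.93 lower and 9.20 higher). Among the lists drawn, early response genes, PDGF genes, glucocorticoid-induced genes and GIMAP genes extend furthest to the right and mismatch repair, splicing factors and respiratory subunits furthest to the left. After centring, no splicing factor was called lower and 6 of 80 respiratory subunits were. Under quantile normalization 14 and 36 were.

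Early response genes, which growth factors and stress switch on within minutes through preformed transcription factors, were largely higher. Of 29 measured, 20 were higher and 0 lower, with a median change of 0.73 against -0.02 over all genes. Maff, a small Maf factor, had signals of 787, 1322, 920.2, 563 and 889 on the non-irradiated arrays and 3823, 3581, 4239, 4317 and 4354 at 6 hours. The groups stood clearly apart, with a change of 2.23 ± 0.19 (adjusted p = 5.71e-07). Ier3, an early response gene linked to survival signalling, rose from 1682 ± 185 to 6166 ± 1019 (1.86 ± 0.13, adjusted p = 8.67e-08). Csrnp1, a nuclear protein induced by axin, rose from 450.2 ± 33.9 to 1558 ± 349 (1.76 ± 0.21, adjusted p = 1.3e-05), and Ier5l, above background on 2 of 5 controls and on all irradiated arrays, had 22.6 ± 12.6 against 168 ± 71.6 (adjusted p = 0.000794). The classical members were already bright without irradiation. Egr1 had signals of 10225, 9229, 9039.9, 8838 and 8415 on the non-irradiated arrays and 15513, 14292, 15981, 11999 and 13995 at 6 hours. Each irradiated array was above each control, by 0.65 on the log2 scale (adjusted p = 4.21e-05). Fos rose from 11526 ± 518 to 16230.0 ± 1662 (0.49 ± 0.074, adjusted p = 0.000182), a call that did not hold without limma's intensity trend (adjusted p = 0.0562). Myc, the growth-promoting factor, rose from 3657 ± 377 to 6064 ± 229.8 (0.73 ± 0.10, adjusted p = 5.49e-05).

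The same 29 genes were compared with the arrays at 24 hours, where 1264 of 18193 genes (6.95%) were higher at 6 hours and 1635 (8.99%) lower, 15.9% in all. Of the early response genes 20 were higher at 6 hours than at 24 hours and 0 were lower. Maff at 24 hours was 1193 ± 206, Ier3 1917 ± 139.9, Egr1 8775 ± 452 and Myc 2688 ± 342, so that Myc was lower there than without irradiation in mean signal. The differences, 6 hours minus 24 hours, were 1.78 ± 0.14 for Maff, 1.67 ± 0.13 for Ier3, 0.70 ± 0.08 for Egr1 and 1.18 ± 0.1 for Myc (largest adjusted p of the 4 = 2.32e-05). Both comparisons share the 6-hour arrays.

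Feedback inhibitors of the same kinase cascades were higher too: 8 of 18 MAP kinase phosphatases, sprouty and spred genes rose and none fell (median 0.67). Dusp5, a nuclear ERK phosphatase, had signals of 367, 442, 270.1, 382 and 219 on the non-irradiated arrays and 889, 807, 737, 992 and 839 at 6 hours. No control array reached the lowest irradiated array, and the change was 1.38 ± 0.25 (adjusted p = 0.000819). Dusp16, which acts on JNK and p38, rose from 308 ± 64.4 to 674 ± 120.2 (1.13 ± 0.25, adjusted p = 0.00416). The receptor tyrosine kinase inhibitors Spry2 and Spry1 rose by 1.26 ± 0.19 and 1.17 ± 0.19 (adjusted p = 0.000175 and 0.000287). Spry1 was higher still at 24 hours, at 2981 ± 145 against 2012 ± 339.6 at 6 hours. The 250 bases before the RefSeq start of Dusp5 (GRCm38.p6, chr19:53528895-53529144, plus strand) hold a pair of adjoining CArG boxes, the element bound by serum response factor, shown in capitals and starting 82 and 72 bases before the start. On either strand 1.47% of 32851 such windows, or 1.62% of 27025 genes, hold at least 1. Dusp5 was the only 1 of 15 listed genes with a window that did. Such a match describes the letters of the window and is not a measured site.
Dusp5: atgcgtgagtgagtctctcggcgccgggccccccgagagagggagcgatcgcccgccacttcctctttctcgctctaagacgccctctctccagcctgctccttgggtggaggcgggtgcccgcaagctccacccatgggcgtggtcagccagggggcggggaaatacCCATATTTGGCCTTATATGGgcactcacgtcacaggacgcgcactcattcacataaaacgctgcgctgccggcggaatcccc

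**Figure D3:**
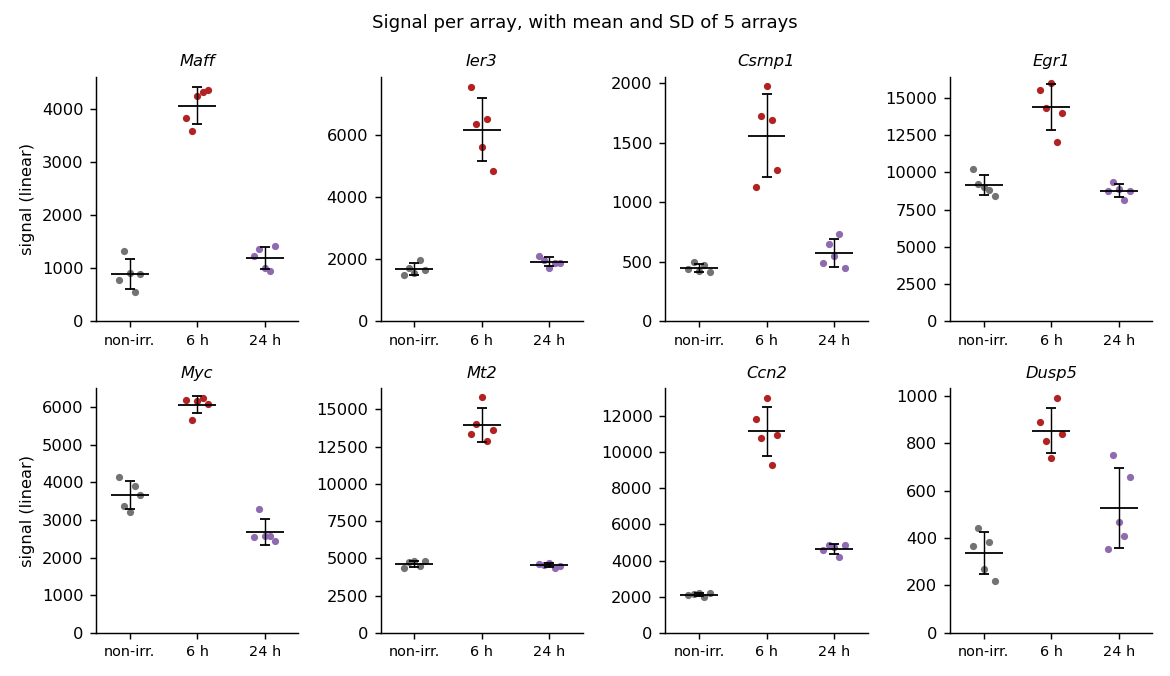
Each point is the linear signal of 1 array for the gene named above the panel, by group (non-irradiated, 6 hours, 24 hours; 5 arrays each), with bars at the mean and SD. In all 8 genes the 6-hour arrays lie above the non-irradiated arrays, and Mt2 and Egr1 at 24 hours are back at the non-irradiated level in mean signal (4524 and 8775).

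Components and targets of the Hippo pathway, whose effectors YAP and TAZ act through TEAD factors in response to cell tension and contact, were higher in 10 of 26 cases and lower in none (median 0.59). Ccn2, or connective tissue growth factor, had signals of 2096, 2164, 2186, 1961 and 2178 on the non-irradiated arrays and 11834, 10752, 12968, 9308 and 10931 at 6 hours. The lowest irradiated array was several times the highest control, a change of 2.39 ± 0.10 (adjusted p = 1.04e-09). Ccn1, the related matricellular protein Cyr61, rose from 7013 ± 603 to 15601 ± 1126 (1.15 ± 0.08, adjusted p = 5.59e-08). Crim1, a transmembrane BMP regulator, rose from 538 ± 164 to 2094 ± 139 (2.02 ± 0.22, adjusted p = 6.81e-06), and the angiomotin relative Amotl1 from 1179 ± 398 to 2610.5 ± 780.3 (1.16 ± 0.24). Ccn2 and Ccn1 were also above the 24-hour arrays, by 1.25 ± 0.093 and 0.64 ± 0.066, whereas Crim1 differed by 0.03 ± 0.16 (adjusted p = 0.922). The letters GGAATG, a core of TEAD sites, occur on either strand within 250 bases before the start in 13 of 21 listed genes with a window and in 14.4% of all 27025 genes. The windows of Ccn1 (GRCm38.p6, chr3:145649986-145650235, minus strand) and Crim1 (chr17:78199998-78200247, plus strand) are shown with the match in capitals, 103 and 79 bases before the start, the one in Ccn1 on the opposite strand.
Ccn1: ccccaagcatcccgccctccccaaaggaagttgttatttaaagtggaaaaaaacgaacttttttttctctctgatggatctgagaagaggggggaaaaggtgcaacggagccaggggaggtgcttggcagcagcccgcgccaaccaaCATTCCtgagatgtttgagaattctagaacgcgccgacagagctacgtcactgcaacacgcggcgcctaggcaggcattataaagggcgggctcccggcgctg
Crim1: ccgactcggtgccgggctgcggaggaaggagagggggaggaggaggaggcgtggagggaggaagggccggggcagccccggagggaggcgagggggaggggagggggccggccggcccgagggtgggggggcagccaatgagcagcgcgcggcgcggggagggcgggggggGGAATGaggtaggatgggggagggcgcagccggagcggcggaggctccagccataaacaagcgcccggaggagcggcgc

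Matrix genes moved in the same direction. Of 42 collagen genes 17 were higher and none lower (median 0.61), and 5 of 20 ADAMTS proteases were higher and none lower (median 0.89). Col4a2, a chain of basement membrane collagen, rose from 3547 ± 192 to 9028 ± 1210.1 (1.34 ± 0.11, adjusted p = 2.39e-07), and the fibrillar chain Col11a1 from 3448 ± 279 to 7919 ± 602 (1.20 ± 0.10, adjusted p = 2.32e-07). Adamts1, a protease that cleaves proteoglycans and restrains angiogenesis, had signals of 3952, 3452, 3206, 3372 and 3910.3 on the non-irradiated arrays and 9468, 9395, 9136, 9255 and 9234 at 6 hours. The irradiated arrays were close together and the groups did not overlap, with a change of 1.38 ± 0.089 (adjusted p = 2.91e-08). Adamts4 and Adamts5, the aggrecanases, rose by 2.56 ± 0.28 and 1.36 ± 0.20 (adjusted p = 6.69e-06 and 0.000158). Adamts1 had returned to 3779 ± 60.3 at 24 hours, while Adamts5 stood at 2402 ± 334 there against 2293 ± 550.4 at 6 hours. Among 39 serpins, inhibitors of serine proteases, 7 were higher (17.9%, against 9.20% over all genes) and none lower, led in strength by Serpina3i (96.1 ± 25.9 against 378 ± 60.8) and Serpinb6a (459 ± 99.9 against 1061 ± 248). Stromal markers, which include collagen genes, were higher in 6 of 10 cases, and their part in these rises was not tested.

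Vasoactive peptides and their receptors, which set vessel tone, held both strong rises and a strong fall: 11 of 32 were higher and 2 lower (median 0.48). Apln, the ligand of the apelin receptor on endothelial cells, had signals of 36.1, 6.34, 22.8, 104 and 37.0 on the non-irradiated arrays and 582, 544, 1168, 574 and 484 at 6 hours. All irradiated arrays were above all controls, 3 of which were themselves above background, and the change was 4.39 ± 0.58 (adjusted p = 4.37e-05). Edn1, the vasoconstrictor endothelin 1, rose from 66.1 ± 36.2 to 1449 ± 253 (4.63 ± 0.40, adjusted p = 6.32e-07). Tac2, a tachykinin precursor, had signals of 703, 1284, 436, 1145 and 844 on the non-irradiated arrays and 19.4, 30.7, 5.16, 6.49 and 4.33 at 6 hours. No irradiated array was above background, which makes the fall at least 19.8-fold (adjusted p = 7.75e-07). At 24 hours Edn1 stood at 253 ± 79.7 and Apln at 285 ± 62.2, both below the 6-hour level by 2.55 ± 0.24 and 1.18 ± 0.28 (adjusted p = 4.19e-06 and 0.0101). Tac2 was 21.3 ± 4.96 at 24 hours.

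Growth factor families differed from each other. PDGF ligands, which recruit pericytes and stromal cells, rose together: 5 of 7 PDGF ligand and receptor genes were higher (median 1.07). Pdgfa had signals of 178, 322, 337, 284 and 283 on the non-irradiated arrays and 678, 581, 927, 1139.8 and 724 at 6 hours. Pdgfb had signals of 261, 378, 177, 253 and 232 on the non-irradiated arrays and 496, 778, 518, 463 and 942 at 6 hours. In both genes the irradiated arrays were above all controls, by 1.52 ± 0.27 and 1.28 ± 0.30 (adjusted p = 0.000831 and 0.00594). Pdgfc rose by 2.08 ± 0.35 and Pdgfd by 1.07 ± 0.28 (adjusted p = 0.000432 and 0.0138). At 24 hours Pdgfa was higher again, at 1402 ± 97.3, and Pdgfb was lower, at 304 ± 58.8, with differences of -0.83 ± 0.2 and 1.03 ± 0.27 (adjusted p = 0.00893 and 0.0166). Of 13 EGF ligand and receptor genes none passed the threshold in either direction, and of 31 FGF genes 2 did, the hormone-like Fgf23 (25.1 ± 12.9, with 1 of 5 controls above background, against 2582 ± 775) and the receptor Fgfr1 (1194 ± 110.4 against 2316 ± 658). The 3 probe sets of Fgfr1 ranged from -0.03 to 0.96 in their change.

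Binding proteins of insulin-like growth factors, which hold the hormones in plasma and matrix, moved in both directions; of 14 genes of this system 4 were higher and 2 lower. Igfbp7, a matrix protein of vessels, had signals of 8996, 7952, 9153, 9176 and 9465 on the non-irradiated arrays and 20159, 17861, 18502, 18122 and 18439 at 6 hours. The groups were narrow and did not overlap, with a change of 1.06 ± 0.067 (adjusted p = 2.61e-08). Igfbp3 and Igfbp2 rose by 1.06 ± 0.20 and 1.89 ± 0.35 (adjusted p = 0.00107 and 0.000944). Igfbp6, which prefers IGF2, fell from 182 ± 62.6 to 35.8 ± 24.3 (-2.64 ± 0.62, adjusted p = 0.00605), with 3 of 5 irradiated arrays above background, and was back at 209 ± 46.7 at 24 hours.

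**Figure D4:**
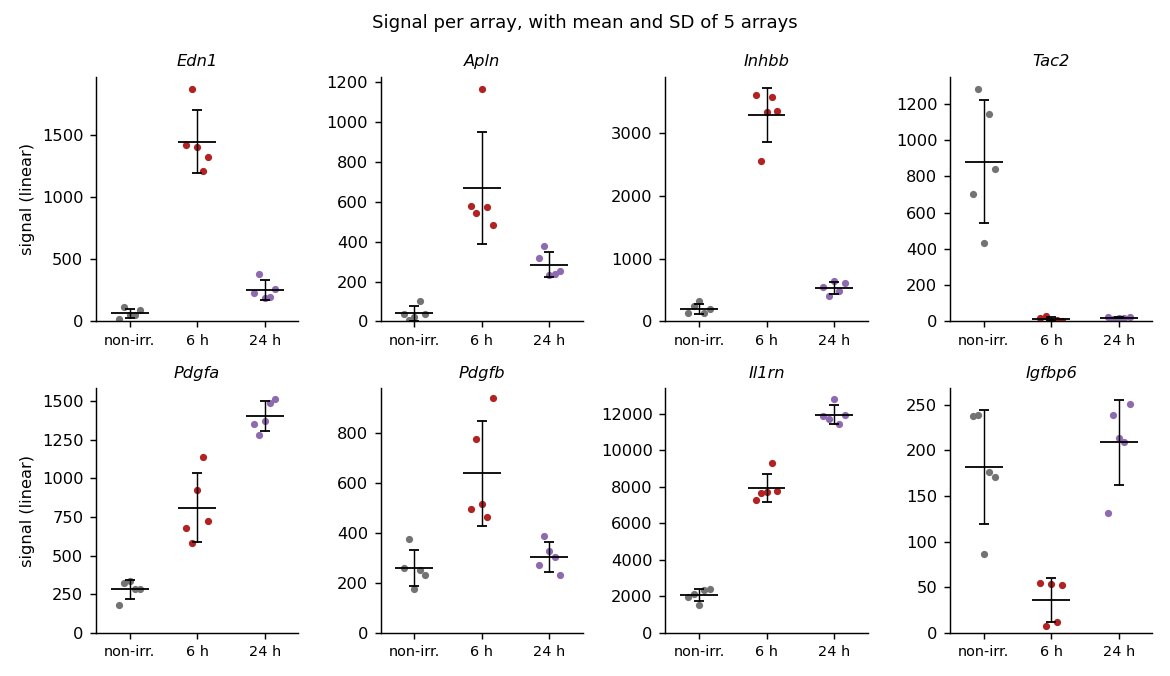
Each point is the linear signal of 1 array for a ligand, binding protein or receptor antagonist, by group (5 arrays each), with bars at the mean and SD. Edn1, Apln and Inhbb are highest at 6 hours, Tac2 and Igfbp6 are lower there than without irradiation, and Pdgfa and Il1rn are higher at 24 hours (1402 and 11951) than at 6 hours.

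Receptors and ligands of the TNF family, which carry death and survival signals, were higher in 10 of 41 cases and lower in 1, or 3 without 6-hour replicate 4 (median 0.40). Tnfrsf10b, the death receptor for TRAIL, had signals of 79.8, 253, 105, 113 and 177 on the non-irradiated arrays and 1138, 1214, 506, 898 and 1018 at 6 hours. The lowest irradiated array was above the highest control, with a change of 2.77 ± 0.36 (adjusted p = 3.66e-05). Eda2r, the receptor for the A2 form of ectodysplasin, was above background on 2 of 5 controls and on all irradiated arrays, at 37.5 ± 37.6 against 1019 ± 478 (adjusted p = 6.14e-06). Tnfsf4, the costimulatory OX40 ligand, was at background on all controls and reached 216 ± 71.6, at least 6.62-fold higher (adjusted p = 2.77e-05). In the list of inflammasome, pyroptosis and necroptosis genes 8 of 18 were higher, or 5 without non-irradiated replicate 4, and 1 was lower. Casp4, the caspase that senses intracellular endotoxin, rose by 1.18 ± 0.22, Birc3, an inhibitor of apoptosis in TNF signalling, by 1.45 ± 0.20, and Ninj1, which ruptures the membrane of dying cells, by 1.99 ± 0.44 (largest adjusted p of the 3 = 0.00404).

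The lower member of that list was Il1b. It had signals of 1101, 1479, 1123, 1323 and 1135 on the non-irradiated arrays and 853, 358, 815, 535 and 227 at 6 hours. The irradiated arrays were all lower, with a change of -1.30 ± 0.32 (adjusted p = 0.00795), and the gene was back at 1345 ± 128 at 24 hours. Il1rn, the antagonist of the interleukin 1 receptor, rose instead, from 2069.7 ± 345 to 7936 ± 778 (1.95 ± 0.13, adjusted p = 3.53e-08), and reached 11951 ± 523 at 24 hours. Il1f9, a relative of interleukin 1 that granulocytes make, fell from 408 ± 46.1 to 103 ± 49.5 (-2.11 ± 0.38, adjusted p = 0.000759). Of 32 interleukin genes only these falls and the rise of Il6 (119 ± 55.9 against 709 ± 74.5, adjusted p = 1.8e-05) passed the threshold. Il13ra2, the decoy receptor of interleukin 13, was among 8 of 43 interleukin receptor genes that rose, with 289 ± 110.2 against 1238 ± 369.8 (2.11 ± 0.31, adjusted p = 0.000115). Granulocyte markers were lower in 10 of 13 cases on the same arrays, and their part in the falls of Il1b and Il1f9 was not tested.

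Sphingosine 1-phosphate is a lipid mediator known to guide leukocytes out of tissues. Of 34 sphingolipid and ceramide genes 11 were higher and 2 lower (median 0.37); the mean of each gene's probe sets gave 4 and 4. S1pr1, the receptor for sphingosine 1-phosphate on endothelium and lymphocytes, had signals of 1403, 1389, 1291, 1835 and 1287 on the non-irradiated arrays and 3770.1, 4480.2, 3915, 3179.7 and 4432 at 6 hours. The groups were well separated, by 1.46 ± 0.15 (adjusted p = 2.61e-06). Spns2, the endothelial exporter of the same lipid, rose by 1.92 ± 0.22, from 370.1 ± 52.0 to 1422 ± 336 (adjusted p = 1.11e-05). Acer2, a ceramidase that supplies sphingosine, rose from 365 ± 26.5 to 1903 ± 663 (2.31 ± 0.24, adjusted p = 3.75e-06), though its other probe set gave 0.59. Endothelial markers were higher in 13 of 14 cases on the same arrays, and their part in these rises was not tested.

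Signalling through G proteins showed a similar pattern. Of 19 RGS genes, which switch G proteins off, 5 were higher and 1 lower. Rgs4 had signals of 298, 352, 322, 445 and 328 on the non-irradiated arrays and 1294, 1373, 1174, 1394 and 1349.5 at 6 hours. All irradiated arrays were above all controls, by 1.92 ± 0.20 (adjusted p = 4.49e-06). Rgs16, Rgs18 and Rgs3 rose by 1.98 ± 0.29, 1.63 ± 0.26 and 1.32 ± 0.16 (largest adjusted p of the 3 = 0.000313). 8 of 22 adhesion receptors coupled to G proteins rose (median 0.48). Adgrg6, a receptor for laminin and collagen IV, had signals of 109.7, 184, 140.3, 185 and 178 on the non-irradiated arrays and 721, 722, 776, 765 and 721 at 6 hours. Its irradiated arrays were within a narrow band above all controls, a change of 2.24 ± 0.27 (adjusted p = 1.63e-05). Adgrl4, an endothelial member, rose from 529 ± 108 to 1388 ± 368 (1.37 ± 0.24). Phosphodiesterases, which end cyclic nucleotide signals, were higher in 5 of 24 cases, including Pde5a (1.45 ± 0.22, adjusted p = 0.000195) and Pde8a (1.76 ± 0.25, with 0.25 in its other probe set).

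Of 84 potassium channel genes 6 were higher and 4 lower (2 lower without 6-hour replicate 3 or 5 or non-irradiated replicate 3, 4 or 5), and of 35 voltage-gated calcium and sodium channel genes 0 and 1 were (0 lower without any 1 of 8 arrays). Potassium channels thus had 7.14% higher and 4.76% lower, below the 9.20% and 9.93% over all genes, so the members named next do not stand for the family. Kcnj8, the potassium channel of pericytes and smooth muscle that opens when ATP is low, rose from 561 ± 165 to 2773 ± 512 (2.34 ± 0.23, adjusted p = 1.8e-06). Trpc6, a cation channel, rose from 125 ± 39.8 to 853 ± 457 (2.67 ± 0.38, adjusted p = 9.59e-05). Kcnn4, the Gardos channel of red cells, fell from 5618 ± 415 to 1539.6 ± 683 (-1.99 ± 0.25, adjusted p = 2.8e-05). Of 344 solute carriers 30 were higher and 34 lower, close to the 9.20% and 9.93% over all genes (49 and 24 after centring). The falls included Slc38a5, a glutamine transporter (1449 ± 295 against 129 ± 67.7), and Slc6a20a, an imino acid transporter (1004 ± 166 against 59.4 ± 57.3), with changes of -3.59 ± 0.33 and -4.53 ± 0.52. Among 45 ABC transporters Abcb1b, a drug efflux pump, had signals of 315, 288, 349, 265 and 281 on the non-irradiated arrays and 2358, 1878, 1675, 1747 and 1232 at 6 hours. The groups did not overlap, with a rise of 2.54 ± 0.22 (adjusted p = 5.33e-07). Abcg4, a sterol exporter, and Abcb10, a mitochondrial transporter of erythroid cells, changed by -3.83 ± 0.29 and -2.91 ± 0.24.

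Genes that glucocorticoids induce in many tissues were higher in 13 of 20 cases and lower in 2 (median 0.83; after centring 14 and 0, and 1 lower without any 1 of 8 arrays). Metallothioneins, small proteins that bind zinc and copper, belong to this list and to that of metal handling. Mt2 had signals of 4345, 4733, 4826, 4509.8 and 4791 on the non-irradiated arrays and 13323, 14016, 15827, 12875 and 13628 at 6 hours. Mt1 had signals of 3331, 3418, 3224, 3512 and 3466 on the non-irradiated arrays and 9041, 11526, 11164, 10954 and 10647 at 6 hours. In both the irradiated arrays stood far above the controls, by 1.58 ± 0.08 and 1.65 ± 0.089 (adjusted p = 2.27e-09 and 4.82e-09), and both were back at 4524 ± 137 and 3545 ± 236 at 24 hours. Mt3 was dimmer and rose from 77.8 ± 40.9 to 237 ± 42.7 (1.76 ± 0.45, adjusted p = 0.00994). For both genes the 250 bases before the RefSeq start are printed (GRCm38.p6, Mt1 at chr8:94178839-94179088, plus strand, Mt2 at chr8:94172368-94172617, plus strand). Metal response element cores, TGCACNC or TGCGCNC on either strand, are in capitals. The Mt1 window holds 1 match, 23 bases before the start, and the Mt2 window holds 3, at 223, 128 and 50 bases. Of 32851 windows, 21.4% hold at least 1. Bases after the RefSeq start were not searched, so these are counts of the windows and not of whole promoters.
Mt1: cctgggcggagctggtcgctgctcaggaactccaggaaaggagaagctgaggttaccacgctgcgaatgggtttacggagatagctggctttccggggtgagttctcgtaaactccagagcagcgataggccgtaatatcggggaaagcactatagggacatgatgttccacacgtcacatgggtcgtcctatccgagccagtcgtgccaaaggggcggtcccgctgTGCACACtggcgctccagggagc
Mt2: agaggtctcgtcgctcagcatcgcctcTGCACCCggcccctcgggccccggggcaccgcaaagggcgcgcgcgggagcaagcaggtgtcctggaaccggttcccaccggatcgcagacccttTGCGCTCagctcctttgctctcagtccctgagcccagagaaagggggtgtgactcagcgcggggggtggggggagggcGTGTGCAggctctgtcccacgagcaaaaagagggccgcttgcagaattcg

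Other stress pathways were mixed. Angptl4, a lipoprotein lipase inhibitor that glucocorticoids and fasting induce, rose from 625 ± 109 to 2252 ± 379 (1.85 ± 0.19, adjusted p = 3.05e-06), and the CCAAT-binding factor Cebpd from 2495 ± 277 to 6155 ± 613 (1.30 ± 0.11, adjusted p = 7.17e-07). Of 24 targets of hypoxia-inducible factor 7 were higher and 3 lower, or 1 lower without non-irradiated replicate 3 or 5. Ndrg1 had signals of 1632, 1604, 1831, 2344 and 2007 on the non-irradiated arrays and 9794, 5903, 8051, 7027 and 7326 at 6 hours. Its groups did not overlap, with a change of 2.01 ± 0.15 (adjusted p = 8.67e-08). The glucose transporter Slc2a1 rose from 995 ± 265 to 3881 ± 1358 (1.93 ± 0.22) and Hif1a itself from 971 ± 103 to 2799 ± 495 (1.51 ± 0.16). Of 20 clock genes 4 rose (20%, against 9.20% over all genes and 12.3% over genes above background) and none fell. The repressor Bhlhe40 was among those that rose (1.13 ± 0.19, adjusted p = 0.000358). The count ranged from 3 to 6 with single arrays left out and was 7 after centring. With the mean of each gene's probe sets it was 3, and the list median went from 0.23 to 0.03. The labels used here give no time of day. Among 40 nuclear receptors 8 rose (20%, against 9.20% over all genes) and none fell, including the vitamin D receptor Vdr (770.0 ± 134 against 2004 ± 146) and the venous factor Nr2f2 (1015 ± 233 against 2466 ± 551).

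Of 20 genes of the integrated stress response, in which the factor ATF4 restores amino acid supply, 6 rose and 3 fell. Asns, asparagine synthetase, had signals of 3424, 3442, 3432, 2981 and 3095 on the non-irradiated arrays and 731, 502, 570.4, 809.7 and 478 at 6 hours. The irradiated arrays were all far below the controls, with a change of -2.43 ± 0.18 (adjusted p = 9.66e-08). Mthfd2, a mitochondrial folate enzyme, fell too, from 616 ± 107 to 225 ± 60.9 (-1.49 ± 0.29, adjusted p = 0.00155), whereas Cebpb, a factor of the same list, rose from 2341 ± 113 to 5344 ± 361 (1.19 ± 0.10, adjusted p = 6.01e-07). The Asns promoter (GRCm38.p6, chr6:7693210-7693459, minus strand) holds the ATF4 response element TGATGNAA in capitals, 23 bases before the start. On either strand 3.91% of all 27025 genes and 6 of 19 listed genes with a window hold it.
Asns: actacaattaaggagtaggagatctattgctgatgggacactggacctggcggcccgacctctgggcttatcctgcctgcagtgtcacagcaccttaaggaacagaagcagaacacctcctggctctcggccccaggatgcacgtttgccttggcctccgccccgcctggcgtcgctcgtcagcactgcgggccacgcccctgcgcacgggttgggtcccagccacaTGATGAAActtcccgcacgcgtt

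Factors of the Kruppel-like family moved in both directions, with 4 of 16 higher and 2 lower (25% and 12.5%, against 9.20% and 9.93% over all genes). Klf6, an early response member, rose from 10178 ± 293 to 17245 ± 1375 (0.76 ± 0.067, adjusted p = 7.55e-07) and Klf7 from 1527 ± 295 to 3702 ± 673 (1.28 ± 0.17). Klf1, the erythroid member, had signals of 6133, 5343, 5628, 5752 and 5609.5 on the non-irradiated arrays and 592, 232, 264, 474 and 590.0 at 6 hours. Its change of -3.83 ± 0.25 (adjusted p = 2.91e-08) went with those of the other erythroid markers.

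Oxidative phosphorylation subunits, which build the mitochondrial respiratory complexes and ATP synthase, were lower in 30 of 80 cases and higher in 2, with a median of -0.38. After centring 6 were lower and 4 higher (median -0.13, against 0.23 over all genes), and under quantile normalization 36 were lower and 2 higher. Ndufb10, a complex I subunit, had signals of 4488, 3827, 4176, 5256 and 4956 on the non-irradiated arrays and 1577, 1496, 2768, 3094 and 2496 at 6 hours. The irradiated arrays were all below the controls, with a change of -1.04 ± 0.19 (adjusted p = 0.00094). Ndufs3 and Ndufa9 of the same complex changed by -0.97 ± 0.20 and -0.91 ± 0.20 (adjusted p = 0.00217 and 0.00329), and at 24 hours stood at 1915 ± 202 and 2484 ± 156, above the 6-hour level (adjusted p = 0.00954 and 0.00834). Cox6b2, a cytochrome oxidase subunit known from testis, rose instead, from 1808 ± 353 to 3356 ± 529.6 (0.90 ± 0.16, adjusted p = 0.000753). Mitochondrial ribosomal proteins followed, with 16 of 73 lower and 1 higher (6 and 1 after centring, 17 and 1 under quantile normalization). Without non-irradiated replicate 1, 2, 3, 4 or 5 the lower count was 9, 10, 8, 7 and 8. Mrpl18 fell from 2959.6 ± 283 to 1467 ± 352 (-1.04 ± 0.17, adjusted p = 0.000343). Erythroid markers fell far more on the same arrays (median -3.77), and their part in these falls was not tested.

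**Figure D5:**
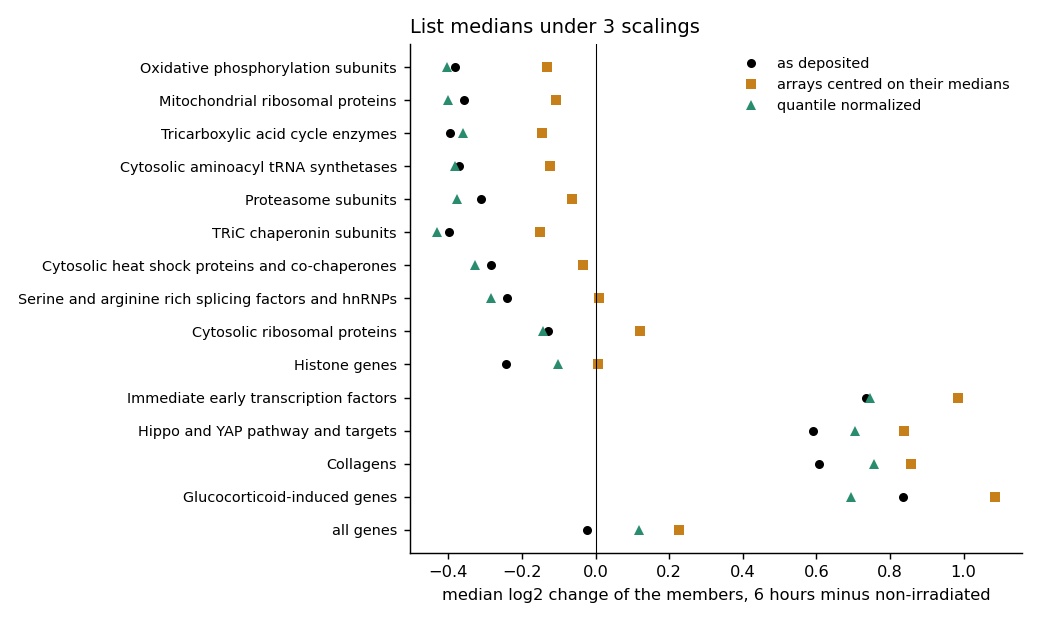
Points give the median log2 change of each list, 6 hours minus non-irradiated, with the arrays as deposited, centred on their medians and quantile normalized; the last line is the median over all genes. The medians of early response, Hippo, collagen and glucocorticoid lists stay above 0 under the 3 scalings, whereas those of splicing factors, histones and cytosolic ribosomal proteins pass 0 when arrays are centred, which moves every list and the median of all genes (-0.02 to 0.23) by the same amount and leaves these lists below it.

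The machinery of protein synthesis showed small changes whose call depends on whether arrays are centred. Of 49 cytosolic ribosomal proteins 12 were lower and 1 higher (median -0.13, against -0.02 over all genes), and after centring 0 were lower and 2 higher (median 0.12, against 0.23), so the list lay below the median of all genes by the same amount under both. Quantile normalization gave 19 lower and 2 higher. As deposited, the lower count was 5 and 7 without 6-hour replicate 2 or 4, and 6, 4 and 5 without non-irradiated replicate 3, 4 or 5. Rplp0, a stalk protein, went from 12234 ± 927 to 8633 ± 724 (-0.50 ± 0.08, adjusted p = 0.000285), with an adjusted p of 0.137 after centring and 0.0512 without the intensity trend. Rps27l, a ribosomal protein relative that p53 induces, was the rising member, from 3805 ± 546 to 6305 ± 909 (0.73 ± 0.13, adjusted p = 0.000542). Against 24 hours, 27 of 49 ribosomal proteins were higher at 6 hours and 1 was lower, beside 6.95% and 8.99% of all genes. This list count was not repeated under other scalings. Over all genes, centring moved the calls against 24 hours from 1264 higher and 1635 lower to 853 and 2128. The Gapdh and hybridization control values also differed between these 2 groups, and their part was not tested. Of 29 splicing factors and hnRNPs, which choose exons in pre-mRNA, 12 were lower and none higher, against 0 lower and 3 higher after centring. Quantile normalization gave 14 lower, and 7 were lower as deposited without non-irradiated replicate 3 or 5. Snhg4 and Snhg8, host genes of small nucleolar RNAs that guide ribosomal RNA modification, fell more clearly, with changes of -1.54 ± 0.24 and -1.35 ± 0.20 (adjusted p = 0.000191 and 0.000139). Fbl, the methyltransferase of the same pathway, fell from 3779.7 ± 456 to 2286 ± 208 (-0.72 ± 0.12, adjusted p = 0.000524).

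Calls in related lists depended on centring or on single arrays as well, whereas quantile normalization did not reduce their lower counts. Of 17 enzymes of the tricarboxylic acid cycle 5 were lower, but 1 without non-irradiated replicate 5, 2 without non-irradiated replicate 1, 2, 3 or 4 or 6-hour replicate 4, 3 without 6-hour replicate 2, and 1 after centring. Of 47 translation initiation factors 9 were lower and 2 higher; 5 were lower without non-irradiated replicate 2 or 3, 4 without replicate 4, and 0 after centring, with 7 higher. Of 8 subunits of the TRiC chaperonin, which folds actin and tubulin, 5 were lower as deposited and 0 after centring. Cytosolic aminoacyl tRNA synthetases gave 6 lower and 1 higher of 19, and 1 and 1 after centring. Under quantile normalization 5 tricarboxylic acid cycle enzymes, 13 initiation factors, 6 TRiC subunits and 7 of these synthetases were lower. In the same order, the centred medians of these lists were -0.15, 0.11, -0.15 and -0.12, against 0.23 over all genes.

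Protein quality control gave a divided picture. Of 22 cytosolic heat shock genes 7 were lower and 3 higher as deposited, and 9 and 3 under quantile normalization. After centring none was lower and 4 were higher. The small heat shock proteins Hspb1 and Cryab rose under each of these scalings. As deposited, they went from 1259.7 ± 207 to 2609 ± 429.7 (1.05 ± 0.17, adjusted p = 0.000274) and from 621 ± 90.2 to 1461 ± 514 (1.18 ± 0.23, adjusted p = 0.00157). Hspa1a, the inducible HSP70 gene, had signals of 879.5, 754, 1327, 1255 and 1149.6 on the non-irradiated arrays and 678, 807, 783, 795 and 669 at 6 hours. The groups overlapped and the change of -0.49 ± 0.21 did not pass the threshold (adjusted p = 0.112; 0.0183 in a fit of all 4 groups). Xbp1, a factor of the unfolded protein response, had signals of 2139, 1983, 1987, 2038 and 2472 on the non-irradiated arrays and 4859.5, 6278, 4648, 5876 and 5709 at 6 hours. It rose by 1.36 ± 0.12 without overlap (adjusted p = 7.67e-07), in a list of 22 with 4 higher and none lower as deposited and 11 higher after centring. Of 39 proteasome subunits 10 were lower and 2 higher, 6 lower without non-irradiated replicate 1 or 4, 5 lower after centring and 14 lower under quantile normalization. Psma1 of the core particle fell from 2001 ± 272 to 971 ± 212 (-1.06 ± 0.19, adjusted p = 0.000643) and Psmd9, an assembly chaperone, from 1016 ± 98.7 to 321 ± 166 (-1.81 ± 0.31). Among 48 ubiquitin-specific proteases 10 were lower and 3 higher, with Usp15 at 1520.2 ± 123 against 510.3 ± 226 (-1.66 ± 0.24; its 6 probe sets ranged from -3.53 to -0.25).

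Lists for repair pathways other than those of double-strand breaks had medians of -0.23 (base excision), -0.22 (nucleotide excision), -1.11 (mismatch) and -0.66 (translesion synthesis). Members of these lists, such as Exo1 and Polq, can also act in break repair. After centring these were 0.02, 0.03, -0.86 and -0.41, against 0.23 over all genes. As deposited, the median over all genes was -0.02, with 9.20% higher and 9.93% lower. Of 17 base excision repair genes 3 were lower and none higher, and of 6 mismatch repair genes 4 were lower, or 2 without non-irradiated replicate 1, 2, 3 or 4. Ung, the uracil glycosylase, had signals of 3623, 2905, 3539, 4294 and 2713 on the non-irradiated arrays and 1179.6, 1429, 392, 1318 and 908 at 6 hours. No irradiated array reached the controls, and the change was -1.82 ± 0.28 (adjusted p = 0.000235). The exonuclease Exo1 and the mismatch sensor Msh6 changed by -1.90 ± 0.38 and -0.78 ± 0.16 (adjusted p = 0.00202 and 0.00184), and the glycosylase Neil3 and the polymerase Polq by -1.28 ± 0.29 and -1.79 ± 0.36. Several of these genes are known to be transcribed mostly in S phase. Ercc1, a subunit of the nuclease of nucleotide excision repair, was 1 of 3 genes of 20 in that pathway that rose, while 1 fell (2 without 6-hour replicate 5, none without non-irradiated replicate 2, 3, 4 or 5). It had signals of 1563, 1541, 1371, 1573 and 1316 on the non-irradiated arrays and 4989, 3468, 4833, 3906 and 4163 at 6 hours. The groups did not overlap, with a change of 1.53 ± 0.14 (adjusted p = 7.55e-07), and its 4 probe sets ranged from 0.42 to 1.53. Of 25 histone genes 7 were lower and 1 higher (5 and 2 after centring), with the linker histone H1f4 at 8320.2 ± 533 against 4042 ± 393 (-1.04 ± 0.094, adjusted p = 8.75e-07) and H2bc22 at 4839 ± 685 against 1934 ± 705 (-1.39 ± 0.20, adjusted p = 0.00013).

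Several enzymes and carriers known from red cell precursors fell. Car2 and Car1, carbonic anhydrases, fell from 16038 ± 800.4 to 4307 ± 438 and from 8133 ± 479 to 1377 ± 257, with changes of -1.90 ± 0.084 and -2.58 ± 0.14. Tfrc, the transferrin receptor, had signals of 9073, 8424, 8777, 8391 and 9083 on the non-irradiated arrays and 1878, 1956, 961, 1239.8 and 1294 at 6 hours. Its irradiated arrays were all far lower, with a change of -2.63 ± 0.17 (adjusted p = 2.84e-08), and Slc25a37, the mitochondrial iron importer, had a change of -1.84 ± 0.19 (adjusted p = 3.03e-06). Slc40a1, the iron exporter ferroportin, had signals of 1508, 1657, 1713, 1679.6 and 1719.5 on the non-irradiated arrays and 415, 499, 480.0, 785 and 347 at 6 hours. It fell without overlap, with a change of -1.76 ± 0.22 (adjusted p = 2.42e-05) and stood at 2545 ± 244 at 24 hours, above the non-irradiated mean, whereas Tfrc was at 417 ± 88.1 there. Of 19 aldehyde dehydrogenases 4 were lower, or 2 without non-irradiated replicate 1, and 1 was higher. Aldh1a1 fell from 2104 ± 191 to 230.0 ± 66.2 (-3.24 ± 0.24, adjusted p = 1.39e-07), and Aldh1a7 fell from 1198 ± 122 to background on all 5 arrays, at least 28.7-fold. Of 23 glutathione transferases 4 were lower (17.4%, against 9.93% over all genes) and none higher, led by Mgst3 (-3.87 ± 0.36, adjusted p = 1.09e-06, with -0.77 in its other probe set) and Gstm5 (-1.94 ± 0.25, adjusted p = 3.2e-05). All 11 measured erythroid markers fell on the same arrays, and their part in these changes was not tested. Car4, a membrane-bound carbonic anhydrase of capillaries, rose from 640.4 ± 239 to 2078 ± 638 (1.71 ± 0.27, adjusted p = 0.000261).

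Some small families are known from particular cell types. GIMAP genes, GTPases that lie side by side on one chromosome and are known from lymphocytes, were higher in 4 of 8 cases (median 1.11). Gimap5 had signals of 256, 306, 227, 383 and 219 on the non-irradiated arrays and 1128, 1396, 1086, 1168 and 1222 at 6 hours. Each irradiated array was above each control, by 2.13 ± 0.23 (adjusted p = 5.97e-06), and Gimap8, Gimap4 and Gimap6 rose by 1.92 ± 0.25, 1.83 ± 0.22 and 1.45 ± 0.17. These 4 genes were also above the 24-hour arrays (largest adjusted p = 0.00023). On the same arrays 13 of 14 endothelial markers were higher, 1 of 9 B lineage markers was higher and 1 lower, and 0 of 8 T and NK cell markers passed the threshold, with summed signals of 699 to 1001 without irradiation and 854 to 1475 at 6 hours; their part in the rise was not tested. S100 proteins, calcium sensors, rose in 4 of 11 cases, among them S100a16 (2.17 ± 0.32), S100a4 (1.11 ± 0.18) and S100a10 (0.89 ± 0.11). Immunoglobulin genes went both ways, 8 of 23 higher and 3 lower: Igkv6-15 rose from 170.0 ± 125 to 1546 ± 184 (3.51 ± 0.44), and Igkv14-111 fell from 384 ± 161 to background, at least 8.69-fold. Near-identical variable segments share probes, so these values are uncertain per gene.

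Cytoskeletal, vesicle and detoxification genes added single strong members. Tubb6, a beta tubulin of many tissues, had signals of 541, 606, 505, 612 and 518 on the non-irradiated arrays and 3788, 3456, 4979.6, 4162 and 3297 at 6 hours. The irradiated arrays were several times the controls, by 2.81 ± 0.16 (adjusted p = 8.13e-09), and stayed there at 24 hours (4116 ± 579.5). Tubb1, the platelet tubulin and a megakaryocyte marker, rose from 849 ± 109.7 to 2882 ± 570.5 (1.75 ± 0.17), on arrays where 6 of 8 megakaryocyte markers were higher. Of 59 Rab GTPases, which direct vesicle traffic, 11 rose and none fell, or 7 without non-irradiated replicate 1. Rab27b, the Rab of secretory granules, rose by 2.43 ± 0.23 (adjusted p = 1.56e-06), while its 4 probe sets ranged from -0.33 to 2.43. Cyp4b1 had signals of 767, 432, 450.2, 719 and 601 on the non-irradiated arrays and 4141, 4334, 4612, 4997 and 3572 at 6 hours. It rose by 2.89 ± 0.19 without overlap (adjusted p = 2.99e-08), 1 of 3 rises among 72 cytochrome P450 genes, 14 of which were at background on all 10 arrays. These rises were 4.17% of the P450 list, below the 9.20% over all genes. Selenom, a selenoprotein of the endoplasmic reticulum, rose from 938 ± 136 to 2288 ± 511. The Schlafen gene Slfn4 fell from 2833 ± 284 to 1170.5 ± 425 (-1.36 ± 0.23, adjusted p = 0.000477) and stood at 5352 ± 350.0 at 24 hours (adjusted p = 5.08e-06 between 6 and 24 hours).

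Of 329 Zfp zinc finger genes 9 were higher and 20 lower (12 and 13 lower without non-irradiated replicate 2 or 4), against 24 higher and 9 lower after centring. As deposited these were 2.74% and 6.08%, below the 9.20% and 9.93% over all genes. Of 38 olfactory receptors and 44 keratins 1 each was higher and 1 each lower, and of 17 NAD enzymes and sirtuins none passed the threshold. Autophagy genes gave 1 higher and 2 lower of 28, and none lower in the fits without any 1 of the 5 non-irradiated arrays or without 6-hour replicate 1, 3 or 5. Counts of 1 in the olfactory receptor and keratin lists fell to 0 or rose to 2 with single arrays left out. Of 27 lysosomal genes 5 were higher and 1 lower; 3 were higher without non-irradiated replicate 2, 8 without 6-hour replicate 4 and 11 after centring. A count near 0 does not show that the members did not differ.

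Direction at 24 hours separated the changes further. Of the 1673 genes higher at 6 hours than without irradiation, 598 were also higher than at 24 hours and 168 were lower than at 24 hours. Of the 1806 lower genes, 399 were also below the 24-hour arrays and 94 were above them. Both comparisons use the same 6-hour arrays, so these counts are not independent.

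Some bright genes differed among the 6-hour arrays themselves. Enpp3, an ectonucleotidase of basophils, had signals at 6 hours of 1909.6, 310.0, 21.1, 1492 and 48.0. Amot, angiomotin, had 836, 154, 639.7, 1004 and 17.8, and Zdhhc2, a palmitoyltransferase, 449, 1524, 489, 6.81 and 43.9. Rgs20 had 230.4, 33.1, 5.22, 1753 and 1105. On the non-irradiated arrays the same 4 genes lay within 221 to 693, 246 to 519, 116 to 165 and 175 to 670.1. The array that was low was not the same for the 4 genes, and none of them passed the threshold.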

How the data were processed

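RNA of VE-cadherin-positive marrow cells was purified on Qiagen RNeasy micro columns; amplification used NuGEN Ovation V2 reagents and the label was biotin, per the labels' protocols. The authors deposited linear intensities per probe set on 20 arrays. From the values, each array's mean without the highest and lowest 2% was 500; the software was Transcriptome Analysis Console and Expression Console, per the submitters' processing notes, and the summarising steps are not given in the sources used here. Of 45101 probe sets 34945 had 1 symbol, 932 had several, 64 were controls and 9160 were unnamed; the brightest single-symbol probe set over all 20 arrays stood for each of 18193 genes.

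Values were tested as log2(signal + 1) with limma 3.58.1 (R 4.3.3; intensity trend, two-sided, Benjamini-Hochberg over all genes, adjusted p under 0.05), on the 2 groups compared, because the 6-hour arrays spread more than the others. The procedure was tested on simulated data. Fold changes of dim genes are understated on this scale. A gene was above background where it exceeded the 95th percentile of the array's 27 bacterial probe sets, and where a whole group was at background the fold is given as a lower bound against it. The number of arrays limits the precision.

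The 94 gene lists, 11 marker lists and the members were chosen with earlier results of these data known. Genes to name were taken by rule: the 15 largest rises and falls without overlap and with a mean of at least 500, the 10 largest shifts of signal each way, up to 4 members per list, the 10 bright genes with the widest spread at 6 hours, and a few fixed genes. From these, the text mainly names genes whose call held with each array left out. Lists are described by counts and medians, with no test. Promoter windows are RefSeq's (GRCm38.p6), matched by symbol.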

Additional observations from a re-analysis of the deposited data

Results flagged for a closer look

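In 21 of 296 groups of 5 arrays, for genes named above, the highest or lowest array was separated from its nearest neighbour by more than Dixon's critical share of the group's range, 10 times at 6 hours and 11 times without irradiation. Chance marks about 1 in 20 such groups, so a number near this is of little note.

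At 6 hours, Myc was lowest in replicate 2 (5665, others 6083 to 6241), as were Inhbb (2559, others 3337 to 3619) and Serpina3i (275, others 379 to 431). Apln was highest in replicate 3 (1168, others 484 to 582), as was Tubb1 (3899.5, others 2558 to 2687). Replicate 4 was highest for Il1rn (9282, others 7263 to 7773) and Vdr (2257, others 1892 to 1981) and lowest for Col4a2 (6903, others 9333 to 9933.5). Replicate 5 was highest for Usp15 (909, others 371 to 464) and lowest for Dglucy (784, others 1759 to 2138).

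Without irradiation, replicate 1 was lowest for Pdgfa (178, others 283 to 337), Ninj1 (65.6, others 234 to 271) and Slc40a1 (1508, others 1657 to 1719.5), and highest for Usp15 (1732, others 1426 to 1499). Replicate 2 was lowest for Fos (10629, others 11590.0 to 11940.0) and highest for Saa3 (190.3, others 74.2 to 78.8). Replicate 3 was highest for Fgfr1 (1389, others 1121 to 1160). Replicate 4 was highest for Igfbp2 (116, others 69.0 to 79.1), Il6 (219, others 90.01 to 102.4) and S1pr1 (1835, others 1287 to 1403), and lowest for Fgf23 (4.35, others 21.9 to 36.6).

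Of 9160 probe sets without a gene symbol, which no comparison above uses, 1273 had a mean signal of at least 500 in a group. The irradiated arrays all lay above the controls in 159 of these and below them in 233. Over all genes, where no such floor was set, the shares were 7.59% above and 8.05% below. A probe set can pass the floor through the group in which it is high. The counts are therefore not directly comparable with these shares.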

How the results depend on the processing

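The counts of genes moved with the scaling and the threshold. Against the non-irradiated arrays, centring on the medians gave 2631 genes higher and 1046 lower. An adjusted p under 0.01 gave 1085 and 1044, and a change of at least 2-fold gave 964 and 1147. Against 24 hours, the stricter threshold gave 666 higher and 878 lower at 6 hours, the 2-fold minimum 635 and 942, and a fit of all 4 groups 2493 lower. With each array left out in turn, the counts ranged from 1391 to 1655 higher and 1358 to 1827 lower against the non-irradiated arrays, and from 968 to 1342 and 1191 to 1712 against 24 hours. The other settings tried kept the counts within 1.5 times. None of the 143 called genes named above changed direction. Of these, 141 were called under every setting that tested them and 143 with each array left out. Genes were named mainly because their call held with each array left out, so the count of 143 was largely fixed by that choice. It does not measure how stable the calls are over all genes. Changes of direction were not checked for the named genes that were not called. Fos lost its call without the intensity trend (adjusted p = 0.0562), Rplp0 there (0.0512) and after centring (0.137), and Hspa1a gained one in the fit of 4 groups (0.0183); the cause was not tested.

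The labels number the arrays 1 to 5 in each group. Same-numbered arrays shared little deviation: their correlations were -0.0503 to 0.000474 with the non-irradiated arrays and 0.00305 to 0.0493 with the 24-hour arrays. With the 24-hour arrays, the best match had the same number for replicates 2, 3 and 4. It had another number for replicates 1 and 5, and for every replicate with the non-irradiated arrays. Correlations this small cannot decide whether the numbers pair the samples. With the replicate number as a block, 1535 genes were higher and 1688 lower against the non-irradiated arrays, and 1146 and 1526 against 24 hours.

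Signal over background sets the limit for dim genes: 1114 of 18193 genes were at background on all 10 arrays.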
